A study of Mus musculus with 12 samples.

Results

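The genes described here are 10 Notch pathway genes: the Delta-like ligand genes Dll1, Dll3 and Dll4, the receptor-modifying enzyme gene Lfng, and the Hes and Hey transcription factor genes Hes1, Hes3, Hes5, Hes6, Hes7 and Hey1. They were taken by symbol from 55487 counted genes, and all 10 passed the filter on low counts that left 18109 genes for testing. The members were selected on their fold changes in these same libraries, together with their place in the pathway, so their counts and medians describe them and are no independent support. Adjusted p-values from the fit over all tested genes are printed with them in the same sense. RNA was sequenced in bulk from embryoid bodies, rotating aggregates of mouse epiblast stem cells, which are pluripotent and primed to differentiate and were derived here from embryonic stem cells. All groups share a transgene, FLAG-tagged Mixl1, that doxycycline switches on. Mixl1 is a homeobox gene of the primitive streak, and the labels present the timing of its expression as the variable of the study. NoDox_d2 and NoDox_d4 were grown without doxycycline and collected on day 2 and day 4. Doxycycline was added at 1 µg/mL to the other 2 groups, D1Dox_d2, taken on day 2, and D3Dox_d4, taken on day 4. What D1 and D3 stand for is not defined in the labels. Each group has 3 libraries, numbered as replicates 1 to 3. Cells without the transgene that received doxycycline were not analysed here, so the drug and Mixl1 cannot be told apart. The labels do not say whether replicates were separate cultures, so each p measures only the spread between these libraries.

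Notch signalling passes between touching cells. A Delta-like or Jagged ligand on a cell binds a Notch receptor on its neighbour, the receptor is cut, and its intracellular part enters the nucleus, joins the DNA-binding protein RBPJ and switches on Hes and Hey genes. The Hes and Hey proteins are basic helix-loop-helix repressors. In neural progenitors they hold back the proneural genes, which in turn switch on Delta-like ligands in cells that begin to differentiate. In the presomitic mesoderm, Dll1, Dll3, Lfng and Hes7 belong to the segmentation clock that spaces the somites, and in blood vessels Dll4 and Hey1 mark arterial cells.

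Libraries held 24100487 to 28020036 counts, so 3 counts equal 0.106 to 0.130 CPM, the unit of counts scaled to library size that is used below. Mixl1 itself held 362 to 392 CPM in the D1Dox_d2 libraries and 417 to 478 CPM in those of D3Dox_d4, against 1.11 to 1.83 CPM in NoDox_d4. In NoDox_d2 it stood at 0.593 and 1.15 CPM in replicates 2 and 3, but at 91.0 CPM in replicate 1, also labelled as grown without doxycycline. The source of this Mixl1 RNA was not tested. Replicate 1 of that group is called the library labelled NoDox_d2 replicate 1 below. Both NoDox libraries numbered 1 stood apart from their groups, with correlations of log2 CPM across genes of 0.957 to 0.961 with the other replicates, against 0.990 and 0.991 between those. Member calls that changed when both were left out are given both ways below. Epiblast markers fell with time without doxycycline, with 5 of 6 lower at day 4. The summed level of these 6 genes was 903 to 1076 CPM in NoDox_d2, 419 to 447 in D1Dox_d2, 217 to 332 in NoDox_d4 and 128 to 156 in D3Dox_d4. In bulk RNA, here and for the members, fewer cells of a type and less RNA per cell cannot be told apart.

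RefSeq promoter windows on GRCm38.p6, running from 250 bases before to 50 after a start site, were at hand for 7 of the 10 members, as 9 windows. Hes1, Hes3 and Hey1 were not among them. The 7-letter RBPJ sequence GTGGGAA, searched on both strands, occurred in 6.38% of 32851 such windows in the table, and its 6-letter core TGGGAA in 25.6%. Among the 9 member windows, those of Hes5, Hes7 and Lfng held the 7 letters, and no other member window held the core. Their 250 bases before the start site are printed 5′ to 3′ to show where the letters of the pathway's own DNA-binding protein lie in these genes. Capitals mark the core or the full 7 letters, read on either strand.
Hes5 (chr4:154960673-154960922, plus strand): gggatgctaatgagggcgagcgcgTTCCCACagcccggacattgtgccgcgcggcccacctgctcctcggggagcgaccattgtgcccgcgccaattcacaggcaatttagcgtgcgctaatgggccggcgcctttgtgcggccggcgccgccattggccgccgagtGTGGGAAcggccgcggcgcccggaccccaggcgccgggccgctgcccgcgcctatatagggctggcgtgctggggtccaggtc
Hes7 (chr11:69120203-69120452, plus strand): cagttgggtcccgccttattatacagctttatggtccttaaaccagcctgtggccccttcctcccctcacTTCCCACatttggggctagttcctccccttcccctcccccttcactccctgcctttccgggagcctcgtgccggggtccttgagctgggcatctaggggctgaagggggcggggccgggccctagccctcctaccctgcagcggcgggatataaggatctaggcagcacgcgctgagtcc
Lfng (chr5:140607091-140607340, plus strand): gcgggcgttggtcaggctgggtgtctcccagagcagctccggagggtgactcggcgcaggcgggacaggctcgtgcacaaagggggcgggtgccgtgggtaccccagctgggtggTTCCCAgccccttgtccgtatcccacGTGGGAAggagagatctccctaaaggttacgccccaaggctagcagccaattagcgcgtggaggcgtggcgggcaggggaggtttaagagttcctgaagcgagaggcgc
In Hes5 the match near the start site begins 83 bases before it on the gene's strand, and the other begins at 226 bases on the opposite strand. The Hes7 match lies at 180 bases before the start, on the opposite strand. Lfng has the 7 letters at 109 bases on its own strand and the core alone at 135 bases on the opposite strand. A pair of motifs that Hes and Hey proteins are known to bind were also searched on both strands. They were the N box CACNAG, present in 42.5% of all windows, and the class C site CACGNG, present in 27.5%. The 2 can share bases. The shares are of single windows, while Dll1 and Hes6 have 2 windows each. Dll1, Dll4, Hes7 and Lfng each had a window with at least 1 of each motif, and the other Dll1 window held only the class C site. Hes6 had the N box in 1 window and the class C site in the other. The windows of Dll3 and Hes5 held neither. These matches are letters in a window and no measurement of binding. At day 2, Hes7, which holds the 7 letters, and Dll1, Dll3 and Hes6, whose windows hold no core, were called lower with doxycycline. Hes5 and Lfng were not called. A link between these letters and the levels given below was not tested.

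Per exon length, which allows genes to be set side by side, the make-up of the Hes and Hey transcripts differed between the groups. In TPM, counts divided by exon length and rescaled to the same total in each library, the 6 Hes and Hey genes together stood at 196 ± 4.69 in NoDox_d2, 131 ± 20.0 in D1Dox_d2, 257 ± 33.5 in NoDox_d4 and 333 ± 24.2 in D3Dox_d4 (SD, n = 3 each, as for all group values here). Hes1 held 41.8% ± 4.36 of that sum in NoDox_d2 and 51.8% ± 1.46 in D1Dox_d2, but 15.7% ± 1.48 in D3Dox_d4. Hes6 held 26.8% to 34.0% of it on average in every group. Hes5 held 2.40% ± 2.00 in NoDox_d2 and 0.376% ± 0.0343 in D1Dox_d2, against 21.4% ± 15.4 in NoDox_d4 and 25.1% ± 2.54 in D3Dox_d4. Hey1 held 27.9% ± 1.88 in D3Dox_d4 and at most 15.0% ± 1.23 as a mean elsewhere. Hes3 held 13.4% ± 1.24 and 13.9% ± 8.69 in the NoDox groups at days 2 and 4, and 0.786% ± 0.398 and 1.05% ± 0.231 in the induced groups. The day 2 pool was thus mostly Hes1 and Hes6 in both groups, and the D3Dox_d4 pool was split mainly among Hes6, Hey1, Hes5 and Hes1.

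The Delta-like sum was lowest in D1Dox_d2, at 22.7 ± 6.02 TPM. It stood at 77.6 ± 33.5 TPM in NoDox_d2, 108 ± 26.1 in NoDox_d4 and 157 ± 5.45 in D3Dox_d4. Dll1 and Dll3 made up nearly all of it in every library. Dll4 held 1.45% to 3.74% of the sum as a group mean, highest in NoDox_d4.

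**Figure D1:**
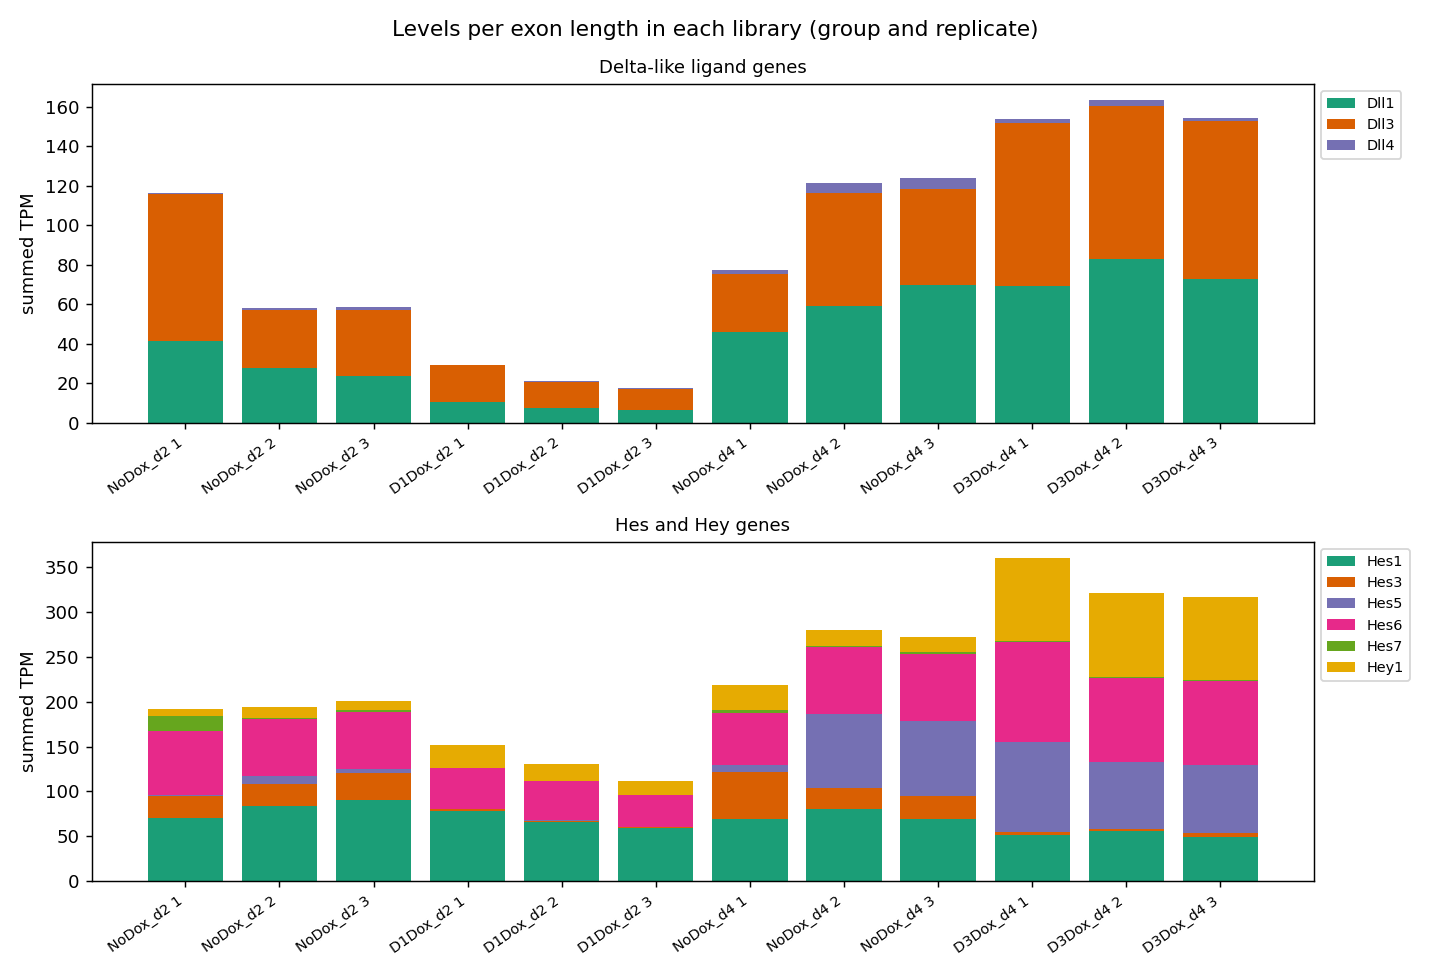
Stacked bars of TPM (linear axis from 0) for the 3 Delta-like genes (top) and the 6 Hes and Hey genes (bottom) in each of 12 libraries, named by group and replicate number. The Delta-like bars of D1Dox_d2 are the lowest, and the Hes5 segment is thin in all day 2 libraries and in NoDox_d4 replicate 1.

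Dll1, the main activating Delta-like ligand of the early embryo (ENSMUSG00000014773.13, chr17:15367354-15376872, minus strand, GRCm38), fell in induced cells at day 2. Its level for replicates 1, 2 and 3 was 56.0, 38.5 and 33.1 CPM in NoDox_d2 and 14.5, 10.5 and 11.9 CPM in D1Dox_d2. At day 4 it was 62.9, 91.8 and 100.4 CPM in NoDox_d4 and 104.3, 111.0 and 98.8 CPM in D3Dox_d4. The day 2 groups did not overlap, while the day 4 groups did. The log2 fold change with doxycycline was −1.79 ± 0.22 at day 2 (SE, edgeR adjusted p = 0.000157) and 0.30 ± 0.21 at day 4 (edgeR adjusted p = 0.336). Without doxycycline Dll1 rose by 1.00 ± 0.21 on the log2 scale from day 2 to day 4 (edgeR adjusted p = 0.0115). That rise missed the threshold without NoDox_d4 replicate 3 (edgeR adjusted p = 0.0512) and when only the NoDox libraries were fitted (edgeR adjusted p = 0.113).

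Dll3, a divergent ligand known to act inside the cell that makes it (ENSMUSG00000003436.11, chr7:28293553-28302238, minus strand), was also lower in induced cells at day 2. It stood at 67.4, 28.1 and 31.9 CPM in NoDox_d2 and at 17.6, 12.98 and 12.7 CPM in D1Dox_d2, without overlap. The value of 67.4 belongs to the library labelled NoDox_d2 replicate 1. At day 4 the values were 27.3, 60.1 and 47.0 CPM in NoDox_d4 and 83.4, 70.1 and 73.3 CPM in D3Dox_d4, again without overlap but in the other direction. The day 2 log2 fold change was −1.56 ± 0.34 (edgeR adjusted p = 0.00623) and the day 4 value 0.76 ± 0.33 (edgeR adjusted p = 0.123). Without both NoDox libraries numbered 1, the day 4 value was 0.50 and passed (edgeR adjusted p = 0.0108). From NoDox_d2 to NoDox_d4 the log2 fold change was 0.08 ± 0.33 over all libraries (edgeR adjusted p = 0.920), but 0.84 without those 2 (edgeR adjusted p = 0.00120).

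Dll4, the vascular Delta-like ligand (ENSMUSG00000027314.6, chr2:119325784-119335962, plus strand), was the least abundant ligand. It stood at 0.636, 1.11 and 1.86 CPM in NoDox_d2 and at 0.341, 0.447 and 0.607 CPM in D1Dox_d2. The day 4 libraries held 2.48, 7.03 and 7.42 CPM in NoDox_d4 and 3.11, 3.58 and 2.07 CPM in D3Dox_d4. Neither doxycycline comparison passed, with −1.37 ± 0.52 at day 2 (edgeR adjusted p = 0.0698) and −0.95 ± 0.44 at day 4 (edgeR adjusted p = 0.151). Both passed when the NoDox library numbered 1 of that day was left out, at −1.69 (edgeR adjusted p = 0.0231) and −1.30 (edgeR adjusted p = 0.0256). With all libraries kept, the day 2 comparison also passed with the DESeq2 test and in edgeR without the filter. Dll4 rose by 2.23 ± 0.47 from NoDox_d2 to NoDox_d4 (edgeR adjusted p = 0.0114, or 0.109 with only the NoDox libraries fitted). Of its exon bases, 5.56% lie opposite another gene, which held 0 to 1.31 CPM. The counts do not separate strands.

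Endothelial markers, set beside Dll4, moved in both directions at day 2. With 10 listed, 5 of the 8 tested were higher with doxycycline and 1 was lower, led by Esam, a junction protein, and by Efnb2, an arterial ephrin, the lower one (log2 fold changes of 2.96 ± 0.35 and −1.19 ± 0.19, edgeR adjusted p = 0.000130 and 0.000959). The defining junction gene Cdh5 stood between 0.0369 and 4.22 CPM over the 12 libraries, and Esm1 had at most 3 counts in any of them. The summed level of the 10 genes was 281 to 369 CPM in NoDox_d2, 315 to 378 in D1Dox_d2, 250 to 301 in NoDox_d4 and 147 to 161 in D3Dox_d4. Most of each sum was Efnb2 and Unc5b, with means of 214 and 90.8 CPM in NoDox_d2 and 93.7 and 176 CPM in D1Dox_d2. The sum thus says little of the other markers. The median log2 fold change of the 8 tested was 2.63 at day 2. The part of these markers in the Dll4 and Hey1 levels was not tested.

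Lfng encodes a glycosyltransferase that adds sugars to Notch receptors and alters which ligands they answer to (ENSMUSG00000029570.5, chr5:140607320-140615545, plus strand). It stood at 24.4, 37.5 and 34.0 CPM in NoDox_d2 and at 43.2, 39.3 and 41.4 CPM in D1Dox_d2. At day 4 it stood at 25.8, 47.9 and 49.8 CPM in NoDox_d4 and at 70.3, 59.5 and 57.6 CPM in D3Dox_d4. The induced libraries lay above the uninduced ones on both days, yet neither comparison passed, with 0.37 ± 0.23 (edgeR adjusted p = 0.243) and 0.60 ± 0.23 (edgeR adjusted p = 0.0740). The day 4 comparison did pass with the DESeq2 test and in edgeR without the filter, with all libraries kept. In each NoDox group the lowest value was that of replicate 1. Without both of those libraries the day 4 value was 0.36 and passed (edgeR adjusted p = 0.0105). The difference between the NoDox groups was 0.36 ± 0.23 over all libraries (edgeR adjusted p = 0.354) and passed at 0.45 without both (edgeR adjusted p = 0.00753) and at 0.61 without NoDox_d4 replicate 1 alone (edgeR adjusted p = 0.0232).

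**Figure D2:**
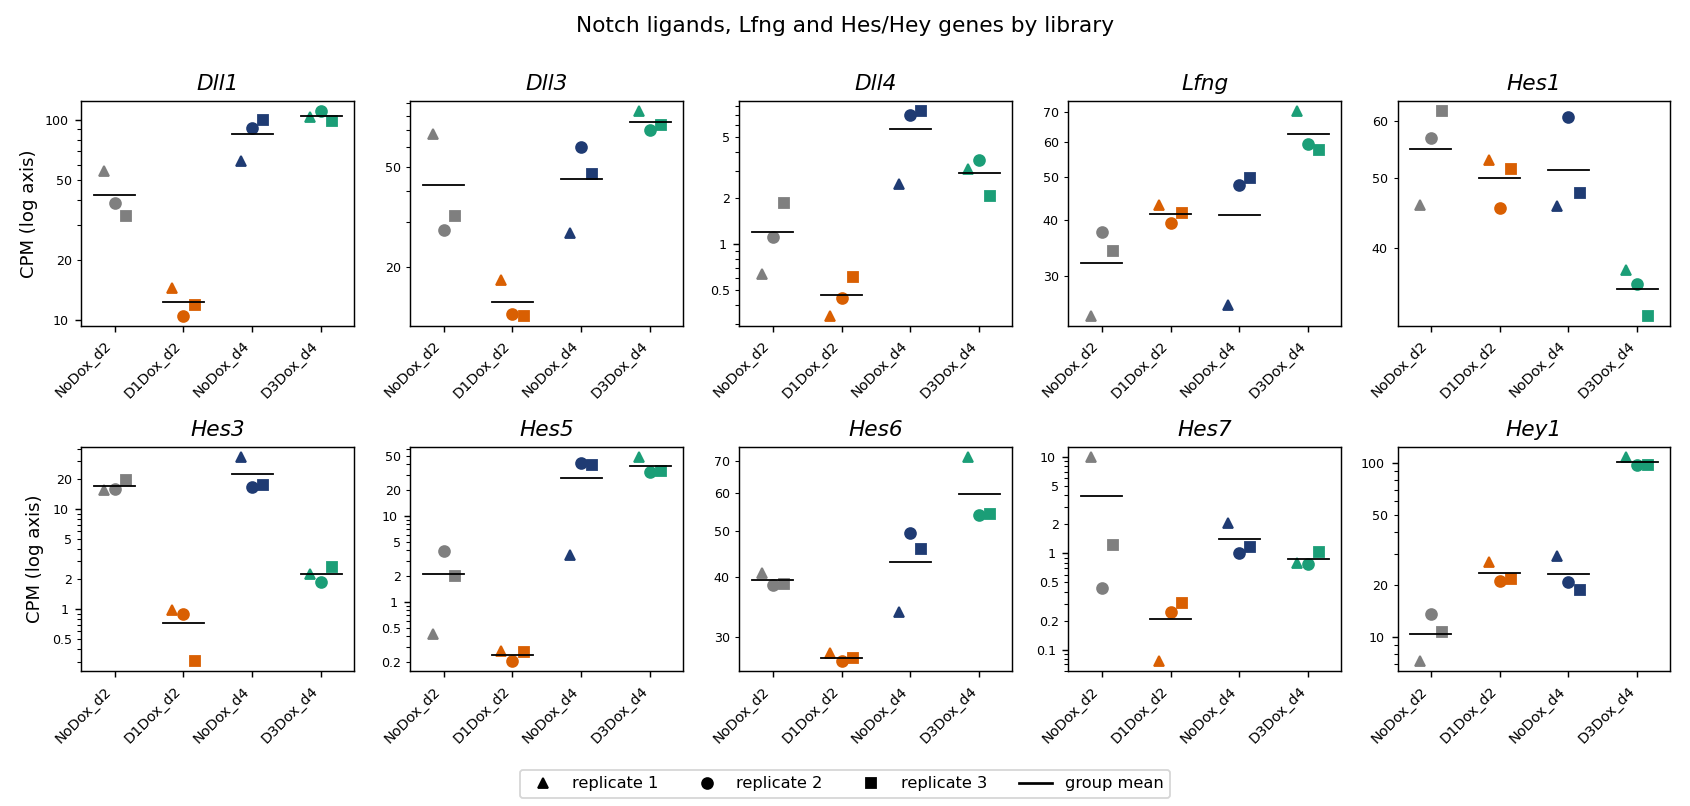
CPM of the 10 genes in each library (points, log axis with its own range in each panel), with triangles, circles and squares for replicates 1, 2 and 3 and a line at the group mean. Hey1 is highest in D3Dox_d4 and Hes3 is low in both induced groups, while Hes5 and Hes7 show replicate 1 of a NoDox group far from the other points.

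Hes1, a broadly expressed Notch target that keeps progenitors dividing (ENSMUSG00000022528.8, chr16:30064384-30067796, plus strand), was the steadiest member, with a range of 0.63 in group mean log2 CPM. It stood at 45.9, 56.8 and 61.8 CPM in NoDox_d2, 52.9, 45.4 and 51.4 CPM in D1Dox_d2, and 45.8, 60.6 and 47.6 CPM in NoDox_d4. In D3Dox_d4 it stood at 37.3, 35.7 and 32.3 CPM, below every other library. The day 4 difference was −0.55 ± 0.14 (edgeR adjusted p = 0.0148) and the day 2 difference −0.14 ± 0.14 (edgeR adjusted p = 0.500). The day 4 call was lost without D3Dox_d4 replicate 3 (edgeR adjusted p = 0.0697) or without NoDox_d4 replicate 2 (edgeR adjusted p = 0.0619).

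Hes6, a family member known to oppose Hes1 and to favour neuronal differentiation (ENSMUSG00000067071.8, chr1:91411483-91414038, minus strand), moved in opposite directions on the 2 days. It stood at 40.9, 38.5 and 38.6 CPM in NoDox_d2 and at 27.7, 26.6 and 27.0 CPM in D1Dox_d2. The tight day 2 groups did not overlap. At day 4 it stood at 33.8, 49.5 and 45.8 CPM in NoDox_d4 and at 71.4, 53.9 and 54.2 CPM in D3Dox_d4, also without overlap. The log2 fold changes were −0.54 ± 0.15 (edgeR adjusted p = 0.0203) and 0.48 ± 0.15 (edgeR adjusted p = 0.0377). Leaving out D1Dox_d2 replicate 2 or 3, or NoDox_d2 replicate 3, ended the day 2 call (edgeR adjusted p = 0.0619, 0.0609 and 0.0508). The day 4 call was lost without D3Dox_d4 replicate 1, NoDox_d4 replicate 1 or NoDox_d4 replicate 3 (edgeR adjusted p = 0.136, 0.0877 and 0.0618). It was also lost with upper-quartile scaling and with only the day 4 libraries (edgeR adjusted p = 0.0575 and 0.107).

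Hes3, a Hes gene known from the early neural plate (ENSMUSG00000028946.7, chr4:152285972-152291662, minus strand), was low in all 6 induced libraries. It stood at 15.5, 15.8 and 19.4 CPM in NoDox_d2 and at 0.985, 0.895 and 0.303 CPM in D1Dox_d2. At day 4 the values were 33.2, 16.8 and 17.3 CPM in NoDox_d4 and 2.24, 1.88 and 2.63 CPM in D3Dox_d4. The lowest uninduced library thus stood at 15.5 CPM and the highest induced one at 2.63. The log2 fold changes were −4.51 ± 0.40 at day 2 (edgeR adjusted p = 1.47e-05) and −3.32 ± 0.36 at day 4 (edgeR adjusted p = 7.49e-05). Both calls held in every alternative run. The library labelled NoDox_d2 replicate 1, with its Mixl1 of 91.0 CPM, kept Hes3 at 15.5 CPM.

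Hes5, the Notch target most closely tied to neural progenitors (ENSMUSG00000048001.7, chr4:154960923-154962371, plus strand), had the widest range of the members, 6.88 in group mean log2 CPM. It stood at 0.424, 3.95 and 2.01 CPM in NoDox_d2 and at 0.265, 0.203 and 0.260 CPM in D1Dox_d2, where each value rests on 5 to 7 counts. At day 4 it stood at 3.51, 41.6 and 38.9 CPM in NoDox_d4 and at 48.9, 32.1 and 33.5 CPM in D3Dox_d4. In both NoDox groups replicate 1 was by far the lowest. The day 2 log2 fold change of −3.09 ± 1.08 missed the threshold (edgeR adjusted p = 0.0515). It passed with only the day 2 libraries (edgeR adjusted p = 0.0295), without the filter (edgeR adjusted p = 0.00683), with DESeq2 (adjusted p = 0.00518), and without the library labelled NoDox_d2 replicate 1, at −3.60 (edgeR adjusted p = 0.0191). The day 4 value was 0.45 ± 0.71 (edgeR adjusted p = 0.699) and turned to −0.08 without NoDox_d4 replicate 1. Without doxycycline Hes5 rose by 3.73 ± 0.82 from day 2 to day 4 although the libraries overlapped (edgeR adjusted p = 0.0138). That call was lost without NoDox_d2 replicate 3 (edgeR adjusted p = 0.0521) and with only the NoDox libraries (edgeR adjusted p = 0.150). An opposite-strand gene covers 31.8% of the Hes5 exon bases. It held 0 to 0.184 CPM in the 12 libraries. How reads over such shared bases were counted was not tested, while the TPM of Hes5 uses its full exon length.

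Hes7, the oscillating repressor of the segmentation clock (ENSMUSG00000023781.2, chr11:69120404-69124055, plus strand), was scarce in all libraries but 1. It stood at 10.03, 0.435 and 1.23 CPM in NoDox_d2, where the first value is that of the library labelled NoDox_d2 replicate 1. D1Dox_d2 held 0.0758, 0.244 and 0.303 CPM, or 2, 6 and 7 counts. NoDox_d4 held 2.05, 1.02 and 1.15 CPM and D3Dox_d4 held 0.795, 0.774 and 1.03 CPM. The day 2 log2 fold change was −4.22 ± 1.03 (edgeR adjusted p = 0.0110), and −2.02 without the library labelled NoDox_d2 replicate 1 (edgeR adjusted p = 0.02004). The day 4 value of −0.70 ± 0.88 did not pass (edgeR adjusted p = 0.620). Of the 12 listed segmentation clock partners, 10 were higher in that library than in either other replicate of its group, and the list summed to 953 CPM there against 557 and 637. Most of the sum in these libraries was Dusp6, at 421 CPM there against 195 and 235, and Spry2, at 213 against 203 and 245. Tbx6, a T-box factor of paraxial mesoderm, was at 38.3 CPM against 3.99 and 4.09 in its group. Msgn1, a bHLH factor of the same tissue, stood at 23.2 CPM there and at 0.158 and 0.186 CPM in replicates 2 and 3. The somite genes Mesp2 and Ripply1 did not follow, with Mesp2 at 0.247 CPM against 0.198 and 0.223, and Ripply1 lower, at 1.41 CPM against 3.68 and 3.87. The gene opposite 12.9% of the Hes7 exon bases held 1.73 CPM there and at most 0.789 elsewhere. Whether these move together in the same cells was not tested.

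Hey1, a Hes-related repressor of vessels, somites and neural tissue (ENSMUSG00000040289.8, chr3:8663359-8667256, minus strand), rose with doxycycline on both days. It stood at 7.31, 13.5 and 10.7 CPM in NoDox_d2 and at 26.9, 21.1 and 21.7 CPM in D1Dox_d2. At day 4 it stood at 29.4, 20.9 and 18.6 CPM in NoDox_d4 and at 107.9, 96.2 and 96.6 CPM in D3Dox_d4. The groups did not overlap on either day. The log2 fold changes were 1.15 ± 0.22 (edgeR adjusted p = 0.00304) and 2.13 ± 0.22 (edgeR adjusted p = 5.55e-05), and both calls held in every alternative run. D1Dox_d2 and NoDox_d4 overlapped at about the same level, with means of 23.2 ± 3.19 and 22.9 ± 5.70 CPM. Without doxycycline Hey1 rose by 1.13 ± 0.22 with time (edgeR adjusted p = 0.00777), or by 0.71 without both NoDox libraries numbered 1 and with a lost call when only NoDox libraries were fitted (edgeR adjusted p = 0.113).

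Counted over the members, the day 2 comparison of D1Dox_d2 with NoDox_d2 called 6 of 10. Hey1 was higher, and Dll1, Dll3, Hes3, Hes6 and Hes7 were lower. Of all genes tested, 28.4% were called, 14.9% higher and 13.4% lower. The members' median log2 fold change was −1.46 against −0.03 over all genes tested. In 9 of 10 members the libraries of the groups did not overlap, against 46% of all genes. When both NoDox libraries numbered 1 were left out, Dll4 and Hes5 were also called lower, which made 8 of 10, and 53.2% of the genes tested were called.

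Marker lists moved along at day 2. Of 12 fibroblast (feeder cell) markers 9 rose, and their sum was 1830 to 2222 CPM in D1Dox_d2 against 347 to 458 CPM in NoDox_d2. Of 8 neural progenitor markers 6 fell, led by the SoxB gene Sox3 at −3.03 ± 0.17 and the zinc finger gene Zic1 at −4.69 ± 0.75 (edgeR adjusted p = 6.33e-07 and 0.000955). Of 6 epiblast markers 3 fell. Their part in the members' levels was not tested.

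The day 4 comparison of D3Dox_d4 with NoDox_d4 called 4 of 10, with Hey1 and Hes6 higher and Hes1 and Hes3 lower. The background was 23.5% of genes called, 13.4% higher and 10.2% lower. The members' median was 0.37 against −0.03 over all genes. Without both NoDox libraries numbered 1, 7 members were called, the 4 above and also Dll3, Dll4 and Lfng, and so were 38.5% of the genes tested. Libraries did not overlap in 6 members, against 40.6% of genes. Of the 12 fibroblast markers 3 rose and 3 fell at day 4, with sums of 542 to 641 CPM in D3Dox_d4. In NoDox_d4 they summed to 725 CPM in replicate 1 and to 212 and 216 in the other replicates. Of the 6 epiblast markers 4 fell. Of the 8 neural progenitor markers 2 fell, with a median log2 fold change of −1.24 and sums of 798 to 979 CPM in D3Dox_d4 against 784 in NoDox_d4 replicate 1 and 1775 and 1907 in replicates 2 and 3. The part of these lists in the members' values was not tested.

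From day 2 to day 4 without doxycycline, Dll1, Dll4, Hes5 and Hey1 rose, which is 4 of 10 members, and the other 6 did not pass. Of all genes, 10.6% were called, 5.09% higher and 5.55% lower. Of the 4, the libraries of Hes5 overlapped. In all, 3 of 10 members did not overlap between these groups, against 23.2% of genes. When only the 6 NoDox libraries were fitted, edgeR called 206 genes in place of 1926 and 0 members, with 4 members at an unadjusted p under 0.05. DESeq2 on all 12 libraries called 4 members. With both NoDox libraries numbered 1 left out, edgeR called 6 members, the 4 above and also Dll3 and Lfng, and 24.4% of the genes tested. Of the marker lists, 5 of 6 epiblast and 3 of 12 fibroblast markers fell over this time, and 2 of 8 neural progenitor markers rose. Their part in these calls was not tested.

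Between the induced groups, D3Dox_d4 stood above D1Dox_d2 in 8 members and below it in Hes1. Of all genes, 44% were called between these groups, 22.6% higher and 21.4% lower. The libraries of the groups did not overlap in 10 of 10 members, against 65.7% of genes. The log2 differences were 3.09 ± 0.23 for Dll1, 2.39 ± 0.35 for Dll3 and 2.65 ± 0.51 for Dll4. They were 7.27 ± 1.05 for Hes5, 2.11 ± 0.22 for Hey1, 1.61 ± 0.39 for Hes3 and 1.14 ± 0.15 for Hes6. Lfng, at 0.60 ± 0.22, only just passed (edgeR adjusted p = 0.0491) and lost its call under 3 other settings and without any 1 of the 6 libraries compared, with edgeR adjusted p = 0.0537 to 0.139. Hes1, at −0.51 ± 0.14, lost its call without D3Dox_d4 replicate 3 (edgeR adjusted p = 0.0553). Hes7, at 2.06 ± 1.06, did not pass (edgeR adjusted p = 0.133), but it did when only the induced libraries were fitted (edgeR adjusted p = 0.00304). Marker lists differed too, with 9 of 12 fibroblast markers, 6 of 6 epiblast markers and 3 of 8 tested endothelial markers lower in D3Dox_d4. Higher there were 5 of 8 neural progenitor markers and 5 of 6 tested proneural genes. Their part in the members' differences was not tested. Day and induction schedule differ together here and cannot be told apart.

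**Figure D3:**
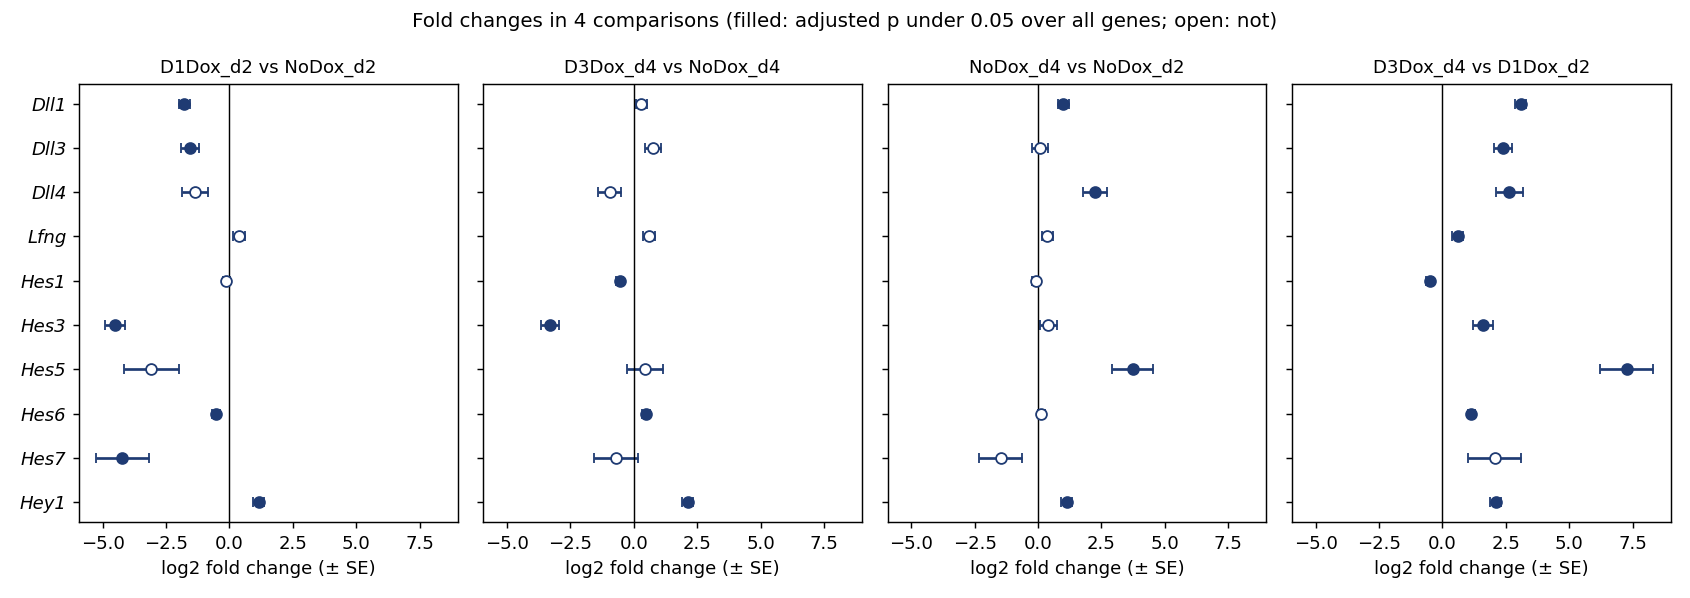
Log2 fold change ± SE (x axis) of the 10 genes (rows) in 4 comparisons (panels), filled where the edgeR adjusted p was under 0.05. Hes3 is filled and far left and Hey1 filled and right in both doxycycline panels, while Dll1, Dll3 and Hes6 lie left of 0 at day 2 and right of it at day 4.

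The doxycycline effects of the 2 days were then compared with each other in the same fit. Dll1, Dll3 and Hes6 passed, with day 4 minus day 2 differences of 2.09 ± 0.30, 2.31 ± 0.47 and 1.01 ± 0.21 (edgeR adjusted p = 0.00203, 0.0105 and 0.0112). All 3 passed in each of the 19 alternatives run, and the day 2 effect was negative and the day 4 effect positive for each. Of all genes, 12.9% passed this test, 6.66% as higher at day 4, the direction of these 3 genes, and 6.24% as lower. Hey1 rose on both days, and its difference of 0.98 ± 0.31 missed the threshold (edgeR adjusted p = 0.0567), as did Hes3, which fell on both days, at 1.20 ± 0.50 (edgeR adjusted p = 0.135). Hes5, at 3.54 ± 1.31, and Hes7, at 3.53 ± 1.35, also missed it (edgeR adjusted p = 0.0954 and 0.105). Hes5, Hes3 and Hey1 passed without NoDox_d4 replicate 1, with differences of 3.02, 1.60 and 1.21 (edgeR adjusted p = 0.0420, 0.0292 and 0.0173). Hes5 and Hey1 also passed without the library labelled NoDox_d2 replicate 1, at 4.05 and 1.20 (edgeR adjusted p = 0.0315 and 0.00711), and Hes7 without NoDox_d2 replicate 2, at 4.06 (edgeR adjusted p = 0.0407). With all 12 libraries kept, Hes5, Hes7 and Hey1 passed with the DESeq2 test and in edgeR without the filter. Without both NoDox libraries numbered 1, Dll1, Dll3, Hes6, Hes3, Hes5 and Hey1 passed, and so did 34.5% of the genes tested. Dll4, Lfng and Hes1 stood at 0.42 ± 0.67, 0.23 ± 0.32 and −0.41 ± 0.20, none passing. The 2 effects share no library, but the difference uses the same libraries as the comparisons above.

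Replicate 1 of each NoDox group lay far from the other replicates in several members. Its CPM over the mean of replicates 2 and 3 was 12.1 for Hes7, 2.25 for Dll3, 1.57 for Dll1 and 0.142 for Hes5 in the library labelled NoDox_d2 replicate 1. In NoDox_d4 it was 0.0872 for Hes5, 0.344 for Dll4, 0.511 for Dll3, 0.527 for Lfng and 1.95 for Hes3. Hes5 and Dll4 were thus low in replicate 1 on both days, while Dll1 and Dll3 were high in it at day 2 and low at day 4. Neural progenitor markers summed to 623 CPM in the library labelled NoDox_d2 replicate 1 against 1043 and 971 in the other replicates. In NoDox_d4 they summed to 784 CPM in replicate 1 against 1775 and 1907. Their part in the Hes5 values was not tested. In the induced groups the ratio lay between 0.277, for the few counts of Hes7, and 1.64.

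**Figure D4:**
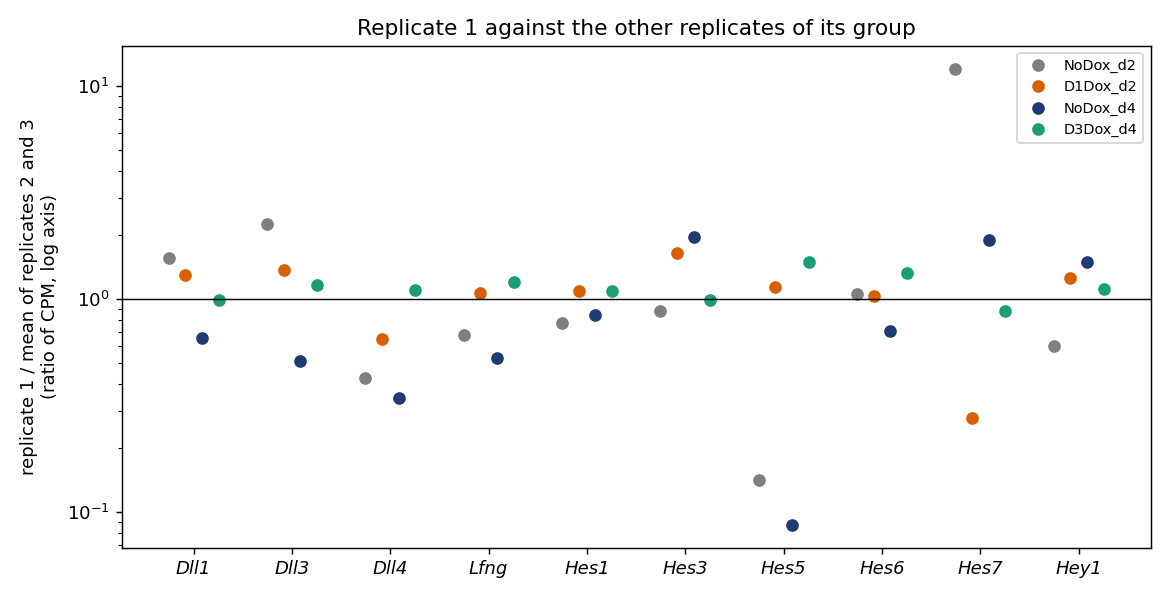
CPM of replicate 1 divided by the mean of replicates 2 and 3 (log axis) for each of the 10 genes, coloured by group, with a line at 1. Hes5 in both NoDox groups, at 0.142 and 0.0872, and Hes7 in NoDox_d2, at 12.1, lie farthest from the line.

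Some genes followed the members with the widest ranges closely over the 12 libraries. The values below are Pearson correlations of log2 CPM among about the same pool of 11117 abundant genes. They are a description, because the libraries fall into groups and share their depth scaling. Nearest to Hes5 were Efnb3, which encodes an ephrin (0.990), Mpnd (0.989) and Fam171a2 (0.989). Nearest to Hey1 were Cadm1, which encodes a cell adhesion molecule (0.991), Chrna3, a nicotinic receptor subunit (0.985), and Slc22a15 (0.984). Hes3 had Ears2, a mitochondrial tRNA synthetase gene (0.982), Cnot10 (0.976) and Hmga1, a chromatin protein gene (0.974). Dll4 had Abtb2 (0.975), Rfesd (0.964) and H1fx (0.961).

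Of 63 other genes of the pathway listed by role, 62 were tested. With doxycycline 11 were higher and 8 lower at day 2, or 30.6% against the 28.4% of all genes. At day 4, 19 were higher and 6 lower, or 40.3% against 23.5%. The median log2 fold change was 0.00 at day 2 and 0.11 at day 4, against −0.03 over all genes on both days. Without both NoDox libraries numbered 1, a setting added after the data had been seen, 35 were called at day 2, or 56.5% against 53.2% of all genes in that setting, and 34 at day 4, or 54.8% against 38.5%. The difference of effects called 9 higher and 3 lower, or 19.4% against 12.9%. In that setting it called 32, or 51.6% against 34.5%.

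Among ligands outside the members, Jag1, a Jagged ligand, stood at 59.9 ± 12.05 CPM in NoDox_d2 and 200.5 ± 2.92 CPM in D1Dox_d2. It rose by 1.74 ± 0.16 on the log2 scale at day 2 and by 1.22 ± 0.16 at day 4 (edgeR adjusted p = 1.87e-05 and 0.000234). Dner, a Delta-like protein of neurons without the usual receptor-binding domain, rose by 3.13 ± 0.46 at day 4, from 6.05 ± 1.32 to 53.0 ± 3.53 CPM (edgeR adjusted p = 0.000658). Dlk2, a noncanonical relative, differed between the effects of the days by 2.65 ± 0.48 (edgeR adjusted p = 0.00600). Of the 4 receptors, Notch2 fell by 0.42 ± 0.13 at day 2 and by 1.33 ± 0.14 at day 4 (edgeR adjusted p = 0.0356 and 4.87e-05). Notch1 rose by 0.93 ± 0.23 at day 4 (edgeR adjusted p = 0.0127), with 59.7 to 91.0 CPM in NoDox_d4 and 87.1 to 170 CPM in D3Dox_d4, so that the libraries overlapped.

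Mfng, a second fringe, was 13.96 to 46.0 CPM in NoDox_d4 and 151 to 189 CPM in D3Dox_d4, a rise of 2.24 ± 0.39 (edgeR adjusted p = 0.00179). Of 6 genes for ligand endocytosis, 3 rose at day 4, among them the ubiquitin ligase gene Neurl1a at 1.26 ± 0.31 (edgeR adjusted p = 0.0116). Of 10 receptor cleavage genes, Aph1b rose at day 2, by 1.52 ± 0.25 (edgeR adjusted p = 0.00120). Another γ-secretase subunit gene, Ncstn, led the 4 that rose at day 4, at 0.74 ± 0.08 (edgeR adjusted p = 7.49e-05). In the nuclear complex, the acetyltransferase gene Kat2b rose on both days, by 0.70 ± 0.16 and 1.12 ± 0.17, and Snw1, a coactivator gene, fell by 0.63 ± 0.09 and 0.39 ± 0.09 (edgeR adjusted p = 0.00917, 0.000658, 0.000474 and 0.00884).

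Nrarp, a Notch target that feeds back on the receptor's intracellular part, fell at day 2 as Dll1 and Dll3 did, by 1.77 ± 0.34 (edgeR adjusted p = 0.00303). It stood at 7.38 to 10.04 CPM in NoDox_d2 and 1.99 to 3.55 CPM in D1Dox_d2, and its effects differed between the days by 1.60 ± 0.46 (edgeR adjusted p = 0.0426). Dtx1, a Deltex gene, differed by 1.78 ± 0.40 (edgeR adjusted p = 0.0165). Of the other 6 Hes and Hey relatives, 5 rose at day 2, among them Heyl at 2.36 ± 0.41 (edgeR adjusted p = 0.00177). For Heyl and Hey2 the difference of effects was −3.05 ± 0.57 and −2.15 ± 0.55 (edgeR adjusted p = 0.00709 and 0.0260), opposite in sign to that of Dll1, Dll3 and Hes6. Helt had 2 counts over the 3 NoDox_d2 libraries, 64 over D1Dox_d2, 0 over NoDox_d4 and 327 over D3Dox_d4. Hes2 had 5, 21, 3 and 196 counts in the same order.

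The proneural genes, which Hes proteins repress and which act upstream of Dll1 and Dll3, summed to 10.1 to 49.8 CPM in NoDox_d2 and 94.7 to 137 CPM in D1Dox_d2. They summed to 30.7 to 134 CPM in NoDox_d4 and 700 to 826 CPM in D3Dox_d4. Most of the induced sums was Neurod4, at 76.6 to 111 CPM in D1Dox_d2 and 599 to 710 CPM in D3Dox_d4. The sum of the other 6 genes overlapped between the groups on both days, at 8.58 to 34.5 CPM in NoDox_d2 and 18.1 to 25.7 in D1Dox_d2, and at 24.0 to 120.4 CPM in NoDox_d4 and 100.8 to 125 in D3Dox_d4. Of the 6 tested, 2 rose and 2 fell at day 2, with a median log2 fold change of −0.17, and 3 rose and 0 fell at day 4, with a median of 1.75. Neurog2, a neurogenin, rose by 2.46 ± 0.34 at day 2 and by 3.01 ± 0.33 at day 4 (edgeR adjusted p = 0.000385 and 7.97e-05). Neurod4, a later neuronal factor, rose by 3.28 ± 0.56 and 6.01 ± 0.62 (edgeR adjusted p = 0.00144 and 5.42e-05). Neurog1 and Neurog3, also neurogenins, fell at day 2, by 2.10 ± 0.60 and 2.64 ± 0.82 (edgeR adjusted p = 0.0229 and 0.0323), the latter on 0 to 7 counts a library in D1Dox_d2. At day 4 they stood at 0.49 ± 0.53 and 0.24 ± 0.60 (edgeR adjusted p = 0.557 and 0.816). The neurogenins were thus called in both directions at day 2, when Dll1, Dll3 and Hes6 were called lower. Among 12 segmentation clock partners, of which 9 were tested, 3 fell at day 2, led by Spry2, an FGF feedback inhibitor, at −1.31 ± 0.19 (edgeR adjusted p = 0.000524).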

How the data were processed

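Bulk RNA-seq of 12 libraries, 4 groups of 3, was analysed from the table of all genes. The NEBNext Ultra II kit, 150 bp paired reads and Trim Galore with a 50 bp minimum were used, per the labels' protocols. Builds GRCm38 and mm10 and the tools STAR, featureCounts and DESeq2 are given in the submitters' processing notes. Per the file headers, the authors deposited raw counts by gene from featureCounts 2.0.1 on GENCODE vM25 with no strand option. Symbols matched 55141 of 55487 genes by Ensembl identifier.

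CPM used edgeR's TMM library sizes and TPM the deposited counts and exon lengths. The edgeR quasi-likelihood model (version 4.0.16 in R 4.3.3, with limma 3.58.1) was fitted to all 12 libraries with filterByExpr, 1 coefficient per group and 8 residual degrees of freedom, and was tested on simulated data. Each SE is the size of the log2 fold change over the square root of F, and can understate counting error at few counts. Calls were made below 0.05 after Benjamini-Hochberg adjustment over 18109 genes. The 5 comparisons were each induced group against the NoDox group of its day, the difference of these effects, and the later against the earlier group with and without doxycycline. Comparisons with a group in common share its libraries.

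All 10 members are named, with the 3 genes of highest correlation for the 4 members of widest range (mean of at least 5 CPM) and at most 2 called genes per comparison with the lowest adjusted p from each of 15 other lists. Tbx6, Msgn1, Mesp2, Ripply1, Dusp6, Esm1, Cdh5 and Unc5b are named for their levels, and Neurog1 and Neurog3 for their direction, all chosen after values were seen. Members and lists were chosen with earlier results of these data known. The samples share only a replicate number. NoDox_d2 and NoDox_d4 libraries of the same number deviated together from their group means (correlations of 0.545, 0.361 and 0.308 across genes). Only 3 of these 6 libraries correlated best with their own number. The main fit used no pairing in any comparison, and the replicate block was run only as an alternative. Promoter windows are RefSeq's, on the files' build. Alternatives were other scalings, filters, the DESeq2 1.42.0 test, a replicate block, only the libraries compared, and leaving libraries out.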

Additional observations from a re-analysis of the deposited data

Results flagged for a closer look

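The effect of doxycycline differed between day 4 and day 2, by a test of the difference itself, for 3 of the 10 genes. Of all genes, 12.9% passed this test, 6.66% as higher at day 4. The members were selected on fold changes in these same libraries, so their count is a description and no independent support. For Dll1 the day 4 effect exceeded the day 2 effect by 2.09 ± 0.30 on the log2 scale (edgeR adjusted p = 0.00203), and all 3 induced libraries lay below the uninduced ones at day 2. For Dll3 the difference was 2.31 ± 0.47 (edgeR adjusted p = 0.0105), with the induced libraries all lower at day 2 and all higher at day 4. For Hes6 it was 1.01 ± 0.21 (edgeR adjusted p = 0.0112), with the same order of libraries as Dll3.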

How the results depend on the processing

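Of 50 member fold changes, 26 were called and 17 of these kept their call in every alternative. Over 740 alternative values, 668 kept direction and side of the threshold, 27 lost a call, 34 gained one and 11 changed sign. Without both NoDox libraries numbered 1, genes called were 9902 in place of 5136 at day 2, 7168 in place of 4263 at day 4, 6424 in place of 2336 for the difference of effects and 4534 in place of 1926 between the NoDox groups. Members called were then 8 in place of 6 at day 2, 7 in place of 4 at day 4, 6 in place of 4 between the NoDox groups and 6 in place of 3 for the difference, which was also 6 with the DESeq2 test and with no filter. Without both NoDox libraries numbered 1, the other pathway genes called were 35 at day 2, or 56.5% against 53.2% of all genes. They were 32 for the difference, or 51.6% against 34.5%, and 16 between the NoDox groups, or 25.8% against 24.4%. With only the NoDox libraries fitted, 206 genes and 0 members were called by edgeR (4 members at an unadjusted p under 0.05). Leaving out 1 library gave 3048 to 7438 genes at day 2, 2756 to 4286 at day 4, 1226 to 5037 for the difference and 1064 to 3208 between the NoDox groups, with 3 to 6 members for the difference. Signs turned, all without a call, between the NoDox groups for Hes3 (−0.049 without both libraries numbered 1) and Hes7 (0.38 without both), and at day 4 for Hes5 (−0.076 without both). Leaving out 1 library also turned signs, over ranges of −0.19 to 0.57 for Dll3, −0.23 to 0.00122 for Hes1 and −1.995 to 0.74 for Hes7 between the NoDox groups, −0.077 to 0.85 for Hes5 at day 4, and −0.041 to 0.74 for Dll4 and −0.0055 to 0.41 for Lfng in the difference. Of these values, 0.74 for Hes7, −0.077 for Hes5 and −0.0055 for Lfng came from leaving out a NoDox library numbered 1. The cause was not tested.

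With the replicate block, 6, 3, 3, 4 and 9 members were called at day 2, at day 4, for the difference, between the NoDox groups and between the induced groups. The number of all genes called with the block is not given here, so these member counts have no background to be read against. The only call the block changed was that of Hes6 at day 4 (edgeR adjusted p = 0.0599). Outside the NoDox comparison, same-numbered libraries correlated at −0.125 to 0.241, and 0, 2 and 5 of 6 libraries correlated best with their own number. Hes5 and Hes7 in D1Dox_d2 rest on 2 to 7 counts a library, which limits their fold changes. Scaling moved the median of all genes by less than 0.1 on the log2 scale.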
